A study of Mus musculus with 4 samples.

Results

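Effector genes of basophils, 8 in number, were followed through single-cell RNA sequencing libraries of mouse bone marrow. They are the granule proteases Mcpt8, Prss34 and Cpa3, the IgE receptor chain Fcer1a, the histamine-forming enzyme Hdc, the cytokine Il4, the activating receptor Cd200r3 and the granule tetraspanin Cd63. They were taken by symbol and make up 8 of the 31053 genes in the count matrices, and all 8 were found. The study compared TLR9-/- with wildtype (WT) C57BL/6 mice, 2 mice of each genotype, in 2 independent experiments that each held 1 mouse of either genotype. TLR9-/- mice lack the endosomal DNA sensor TLR9 in every cell of the body, so a difference in one cell class cannot be assigned to the loss of TLR9 in that class. Mononuclear cells of femur and tibia were taken from a Ficoll interface, and the 5′ ends of their transcripts were counted as unique molecular identifiers (UMIs, 1 for each captured RNA molecule). The labels gave no age, sex or treatment for these 4 mice.

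Basophils are rare granulocytes of the marrow and blood that carry IgE on a high-affinity receptor. When antigen crosslinks this receptor they release histamine and proteases from granules and secrete type 2 cytokines. In the marrow they arise from progenitors that also give rise to mast cells and other granulocytes, and they divide before they leave.

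Of 40545 barcodes, 39167 were kept as cells, with between 8895 and 10781 cells in a library. The libraries held 50204578 and 63958243 UMIs in TLR9-/- and 31210188 and 41384657 in WT. The median cell had 2545 and 3618 UMIs in TLR9-/- and 1759 and 2287 in WT. Both TLR9-/- libraries were thus deeper than both WT libraries. Raw UMI numbers below, and numbers of cells with a UMI before thinning, are not corrected for this. Pairs of libraries shared between 112 and 185 cell barcodes. Tlr9 itself gave 41 and 48 UMIs in TLR9-/- mice, compared with 120 and 97 in WT mice, a log2 fold change of -1.98 (SE 0.35, edgeR adjusted p = 0.117), so that the groups did not overlap but the test was not passed. Which part of the transcript the disrupted allele still makes is not given in the labels, so these reads check the labels only by level.

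Because the 8 genes are themselves used to recognise basophils, cells were clustered without them. One cluster of 778 cells, led by Ccl3, Ccl4, Gata2, Ms4a2 and Cyp11a1, held 310 and 197 cells from the TLR9-/- mice and 167 and 104 from the WT mice. Between 19 and 20 of 20 basophil markers, none of them among the 8 genes, were detected in its cells in each library. Their summed level was 7997 to 12146 CPM there (a gene's share of the UMIs of the summed cells, scaled to a common total) and 151 to 267 CPM in all other cells. Of 10 mast cell markers, among them Cma1, Mcpt4 and Tpsb2, 0 UMIs were found in this cluster in all 4 libraries. The cluster is called basophils below. That name also takes in dividing cells and cells with genes of granulocyte precursors, as its subclusters below show.

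The genes lie on 8 chromosomes (GRCm38, GENCODE coordinates) and are all protein coding. Mcpt8 lies at chr14:56082166-56085273 on the minus strand, Prss34 at chr17:25298394-25300165 on the plus strand and Cpa3 at chr3:20215620-20242181 on the minus strand. Fcer1a spans chr1:173221284-173227214 (minus), Hdc chr2:126593667-126619299 (minus) and Il4 chr11:53602982-53618669 (minus). Cd200r3 spans chr16:44943678-44981380 (plus) and Cd63 chr10:128900989-128912822 (plus). Because 6 of the genes shared one expression pattern across cell classes, the RefSeq promoter windows (GRCm38.p6, 250 bases before to 50 after the annotated start) were searched on both strands for GATAA, the core letters bound by GATA factors. It was present in 5 of the 9 windows of the 8 genes and in 25.4% of 32851 promoter windows of the mouse genome. The 5 belonged to Prss34, Cpa3, Fcer1a, Il4 and Cd200r3, and a further window of Il4 lacked it. The 150 bases before the start are shown for the 4 genes that held the motif within them, 5′ to 3′ on the strand of the gene, with the motif on either strand in capitals.
Prss34 (chr17:25298244-25298393, plus strand): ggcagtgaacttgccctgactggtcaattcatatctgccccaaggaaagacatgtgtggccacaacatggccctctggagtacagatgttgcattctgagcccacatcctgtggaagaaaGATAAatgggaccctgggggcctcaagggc
Cpa3 (chr3:20242182-20242331, minus strand): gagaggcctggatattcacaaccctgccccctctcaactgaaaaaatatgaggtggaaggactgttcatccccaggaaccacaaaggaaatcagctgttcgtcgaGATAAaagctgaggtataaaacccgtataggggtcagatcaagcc
Fcer1a (chr1:173227230-173227379, minus strand): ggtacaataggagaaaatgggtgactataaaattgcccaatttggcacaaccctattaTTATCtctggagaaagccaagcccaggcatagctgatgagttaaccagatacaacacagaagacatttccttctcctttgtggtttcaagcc
Cd200r3 (chr16:44943528-44943677, plus strand): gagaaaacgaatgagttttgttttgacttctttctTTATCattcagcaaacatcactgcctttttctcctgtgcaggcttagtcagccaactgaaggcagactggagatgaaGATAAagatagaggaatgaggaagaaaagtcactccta

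The first base of the match lay 30 bases before the start in Prss34, 45 in Cpa3, 92 in Fcer1a, and 115 and 38 in Cd200r3. No GATAA was found in the windows of Mcpt8, Hdc and Cd63. The motif TGTGGT, the core of sites bound by RUNX factors, was found in the windows of Mcpt8, Cpa3 and Fcer1a, against 16.8% of all windows, and Mcpt8 held it 2 times. TTGCNNAA, the form bound by C/EBP factors, was found for Fcer1a, Il4 and Cd200r3 (10.8% of all windows), and TATAAA for Cpa3 and Fcer1a (13.6%). These are matches of letters and were not compared with any binding data.

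Of the 8 genes, 6 were concentrated in basophils in every library, whereas most Hdc and Cd63 molecules came from neutrophils and their precursors. Basophils held 94.6% to 97.2% of all Mcpt8 UMIs of a library, 97.2% to 99.1% of Prss34, 95.8% to 99.3% of Fcer1a and 94.7% to 97.9% of Cd200r3. For Cpa3 the range was 85.3% to 92.2% and for Il4 78.7% to 91.0%. For Hdc it was 7.24% to 23.4% and for Cd63 6.97% to 21.8%. Levels in basophils are compared with other classes only as a description, since the cells were grouped by the genes expressed in them.

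**Figure D1:**
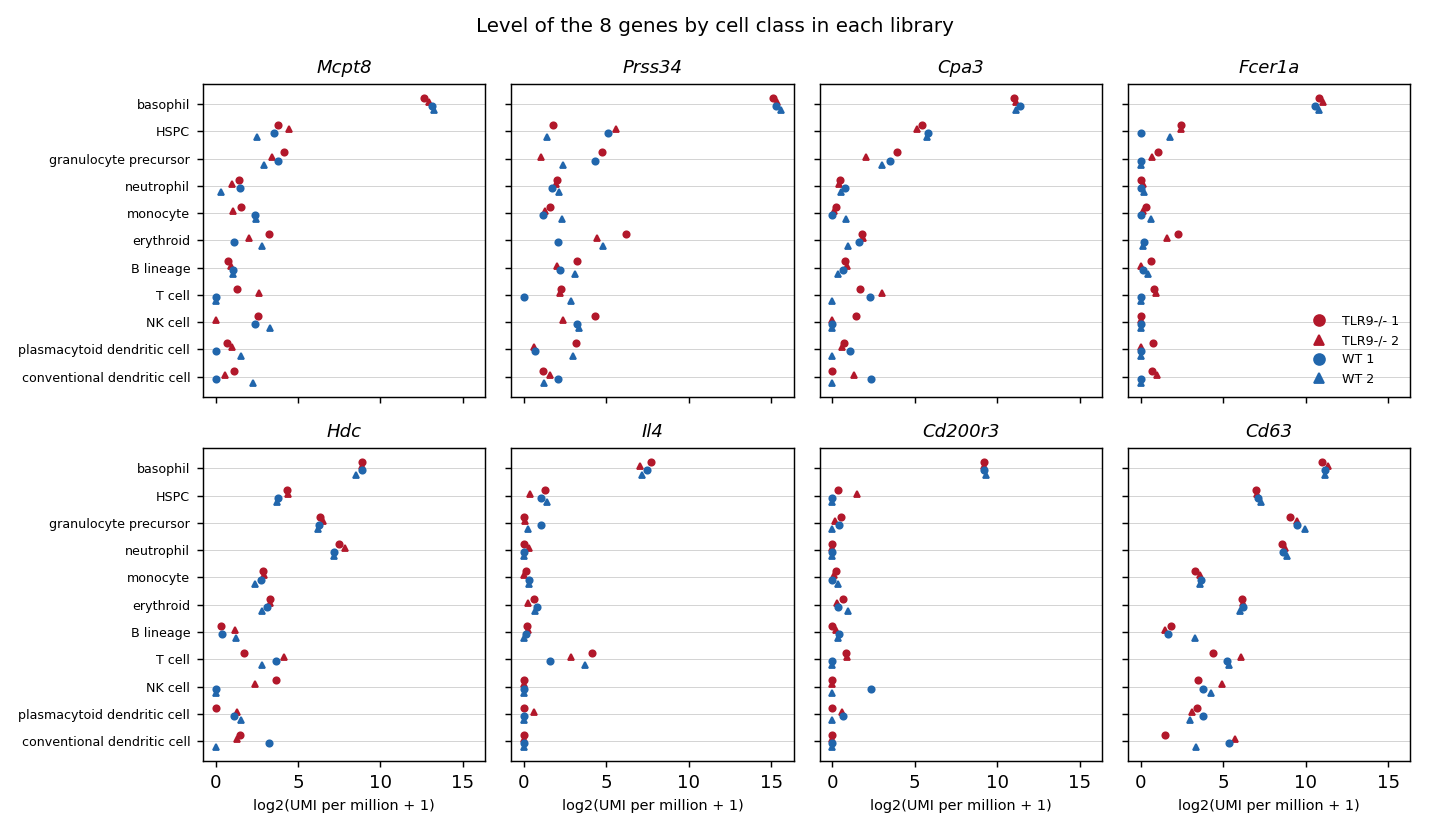
Level of the 8 genes in 11 cell classes, as log2(CPM + 1) of the summed counts of each class in each library. Each point is 1 of the 4 libraries. Basophils stand above the other classes shown for each gene. Among those, Hdc is next highest in neutrophils and Cd63 in granulocyte precursors.

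Prss34, a serine protease of basophil granules, gave 37770, 47561, 19771 and 16461 UMIs in the basophils of TLR9-/- 1, TLR9-/- 2, WT 1 and WT 2. This was 3.52% to 4.91% of all UMIs of these cells. Mcpt8, the serine protease most used to mark mouse basophils, gave 6845, 9230, 4320 and 3242 UMIs in the same order of libraries. In HSPCs (hematopoietic stem and progenitor cells) its level was 4.79 to 20.5 CPM, in granulocyte precursors 6.56 to 17.0, and in the B lineage 0.67 to 1.12, compared with 6377 to 9675 in basophils. The ranges of HSPCs and granulocyte precursors overlapped. An unnamed cluster of 304 cells, 170 and 126 of them from TLR9-/- 1 and WT 1, also held up to 748 CPM of Prss34 and 217 CPM of Mcpt8 in a library. In the 4219 erythroid cells Prss34 lay between 3.16 and 73.1 CPM, on 405, 209, 22 and 241 UMIs in the same order of libraries. Of these, 21, 9, 22 and 30 UMIs lay in cells outside the marker gate for basophils described below.

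Cpa3, a carboxypeptidase of mast cell and basophil granules, reached 2035 to 2700 CPM in basophils and 34.7 to 55.1 in HSPCs. It had a UMI in 119 of 1215 HSPCs. In the B lineage, which should lack it, a UMI was seen in 13 of 14590 cells. The median depth was 4361 to 8696 UMIs in HSPCs and 1122 to 1717 in B lineage cells. After each cell was thinned to 1000 UMIs, between 2.97% and 4.28% of HSPCs and 0.03% to 0.05% of B lineage cells still had a Cpa3 UMI.

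Fcer1a, the IgE-binding chain of the receptor, reached 1502 to 2112 CPM in basophils and at most 4.37 in HSPCs. Cd200r3, a receptor that signals through an adaptor chain, lay between 579 and 639 in basophils and gave 0 UMIs in 6043 neutrophils. Il4 lay between 132 and 205 in basophils. Outside them it gave 22, 7, 1 and 4 UMIs in the T cells of TLR9-/- 1, TLR9-/- 2, WT 1 and WT 2, a level of 1.94 to 16.6 CPM, and at most 1.60 CPM in HSPCs. In the mean over the 4 libraries, Il4 was thus next highest in T cells (9.22 CPM), which also make this cytokine. The unnamed cluster followed (3.47 CPM, with 0 to 9.53 in a library), and the order was not the same in every library.

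Hdc, the enzyme that forms histamine from histidine, lay between 370 and 475 CPM in basophils, between 141 and 226 in neutrophils and between 71.8 and 91.7 in granulocyte precursors. These 3 ranges did not overlap. Cd63, which is found in granule and lysosome membranes of many cells, lay between 2054 and 2607 in basophils, 532 and 984 in granulocyte precursors and 374 and 461 in neutrophils, again without overlap. In the 62 mesenchymal or endothelial cells, Cd63 lay between 551 and 1562. Summed over the libraries, the 6043 neutrophils held 4420 Hdc and 10301 Cd63 UMIs and the 1984 granulocyte precursors 3074 and 26107.

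Likeness of pattern was measured as the Pearson correlation of log2(CPM + 10) over 52 sums, 13 classes in each of the 4 libraries, against 16159 genes. Mcpt8 was most like Ms4a2, the beta chain of the IgE receptor (r = 0.99), and then Fcer1a and Cd200r3. The genes most like Prss34 were Mcpt8 (r = 0.98), Fcer1a and Ms4a2, and those most like Cpa3 were Gm11697, BC016579 and Csrp3. Fcer1a was closest to Cyp11a1, Cd200r3 and Ms4a2, and Cd200r3 to Cyp11a1, Fcer1a and Grm6. Il4 was closest to Gpr34, Grm6 and Il6 (r = 0.97 for each). Hdc was like Ldhc (r = 0.94) and Alox5 (r = 0.92), and Cd63 was closest to Igf1r, Serpine2 and Bace1 with r of 0.79 to 0.82. The sums of one library share its depth and its free RNA, and the values for the first 6 genes rest on 1 class that is high.

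Basophils made up 2.88% of the cells of TLR9-/- 1 (95% Wilson interval 2.58 to 3.21) and 2.21% of TLR9-/- 2 (1.92 to 2.54). The share was 1.58% in WT 1 (1.36 to 1.84) and 1.17% in WT 2 (0.97 to 1.41). Both TLR9-/- libraries lay above both WT libraries. The means were 2.54% ± 0.47 (SD, n = 2) and 1.37% ± 0.29 (SD, n = 2), a log2 fold change of 0.89 (SE 0.38), but the difference did not pass the edgeR test on cell numbers over 15 classes (adjusted p = 0.169). An exact permutation test on the shares cannot go below p = 0.33 with 2 against 2 mice, and gave that value (two-sided). The intervals cover counting error only. The Ficoll step removes part of the dense granulocytes, so shares refer to the cells that were loaded. Steps of this size were not particular to basophils. In the same edgeR fit, log2 fold changes were 1.09 for granulocyte precursors, 1.01 for monocytes, 0.94 for HSPCs (hematopoietic stem and progenitor cells) and 1.36 for T cells. They were -0.82 for the B lineage, -0.60 for erythroid cells and -2.02 for macrophages. Of these, monocytes and the B lineage passed (adjusted p = 0.0292 for each).

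**Figure D2:**
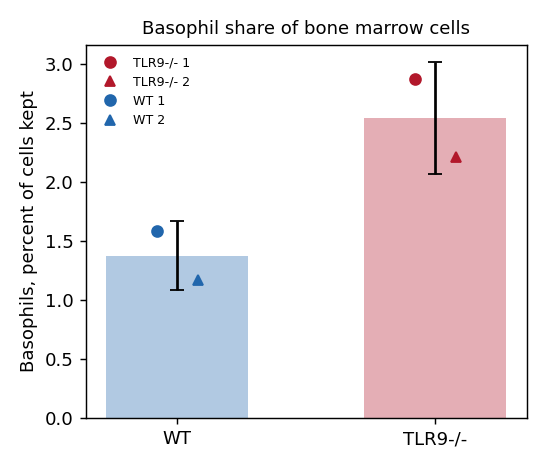
Basophils as percent of the cells kept in each library. Bars give the mean of 2 libraries per genotype, error bars the SD and points the libraries. The TLR9-/- libraries lie at 2.88% and 2.21%, above the WT libraries at 1.58% and 1.17%.

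The 8 genes were not spread evenly over basophils. No UMI of either Mcpt8 or Prss34 was found in 88 of 310, 45 of 197, 25 of 167 and 22 of 104 basophils of TLR9-/- 1, TLR9-/- 2, WT 1 and WT 2, while the highest cell of a library had 161 to 335 Mcpt8 UMIs. Over all basophils of a library, Cd63 was missing in no more than 4.81%. Of the basophils with neither protease, 56 of 88, 34 of 45, 19 of 25 and 14 of 22 had a UMI of Cd200r3 or Il4, in the same order of libraries. Correlations were taken over 267, 170, 138 and 92 basophils in the same order of libraries, without the cells of the mixed subclusters described below. Across these single basophils of a library, the levels of Mcpt8 and Prss34 went together, with r of 0.89 to 0.93 over the 4 libraries. Mcpt8 and Cpa3 had r of 0.43 to 0.64 and Mcpt8 and Fcer1a 0.38 to 0.49, while Mcpt8 and Hdc had r of -0.16 to 0.00. These are descriptions over cells that differ in depth, and for Hdc, Il4 and Cd200r3, with a median of 0 to 3 UMIs per cell, a low correlation says little.

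Clustering the basophils again, still without the 8 genes, gave 3 large subclusters. The largest (331 cells) was led by Cd7, Ccl6, Zfp36, Il7r, Junb and Ccl4. The next (216 cells) was led by Igfbp4, Myb, Ms4a3 and Ctsg, the last 2 of which are genes of early granulocytes. The third (120 cells) was led by Ube2c, Birc5, Top2a and Cdk1, genes of dividing cells. Their cells differed in depth, with medians of 1434, 3796 and 6600.5 UMIs. Ccl4 varied widely between libraries, at 1042 to 12624 CPM, 13.8 to 1107 and 23.0 to 617 in the same order. Its range in the first thus overlapped that in the second. Il7r, at 218 to 425, 6.05 to 28.2 and 0 to 28.8, kept the first apart. Genes of granulocyte precursors were high in the last 2 subclusters. Mpo lay between 0 and 65.4 CPM, 621 and 2503, and 1399 and 2395 in the same order. Ctsg lay between 110 and 360, 2663 and 4497, and 3631 and 5242. Mcpt8 lay between 1279 and 3655 CPM in the Ccl4/Il7r subcluster, between 8432 and 11215 in the Myb/Ms4a3 subcluster and between 10591 and 19287 in the Top2a/Birc5 subcluster. Prss34 lay between 7971 and 18699, 46879 and 67375, and 55771 and 78646 in the same order. For both proteases the first range lay apart from the other 2, which overlapped.

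Cpa3 followed the same order at 1145 to 1987, 2594 to 3219 and 2823 to 3739 CPM. Fcer1a differed less, with 1265 to 1879, 1336 to 2146 and 2477 to 3067, and here the dividing cells stood apart. Hdc ran the other way, with 654 to 950 in the Ccl4/Il7r subcluster against 301 to 456 and 297 to 437 in the others. Il4 did likewise (251 to 485 against 84.7 to 196 and 94.6 to 129), and so did Cd200r3 (850 to 1224 against 436 to 565 and 478 to 735). Cd63 did not separate the subclusters, with 2290 to 3434, 2286 to 2849 and 2329 to 3024. Thus the Ccl4/Il7r subcluster was low in the 3 proteases and high in Hdc, Il4 and Cd200r3, as a description of cells grouped by other genes of the same cells.

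**Figure D3:**
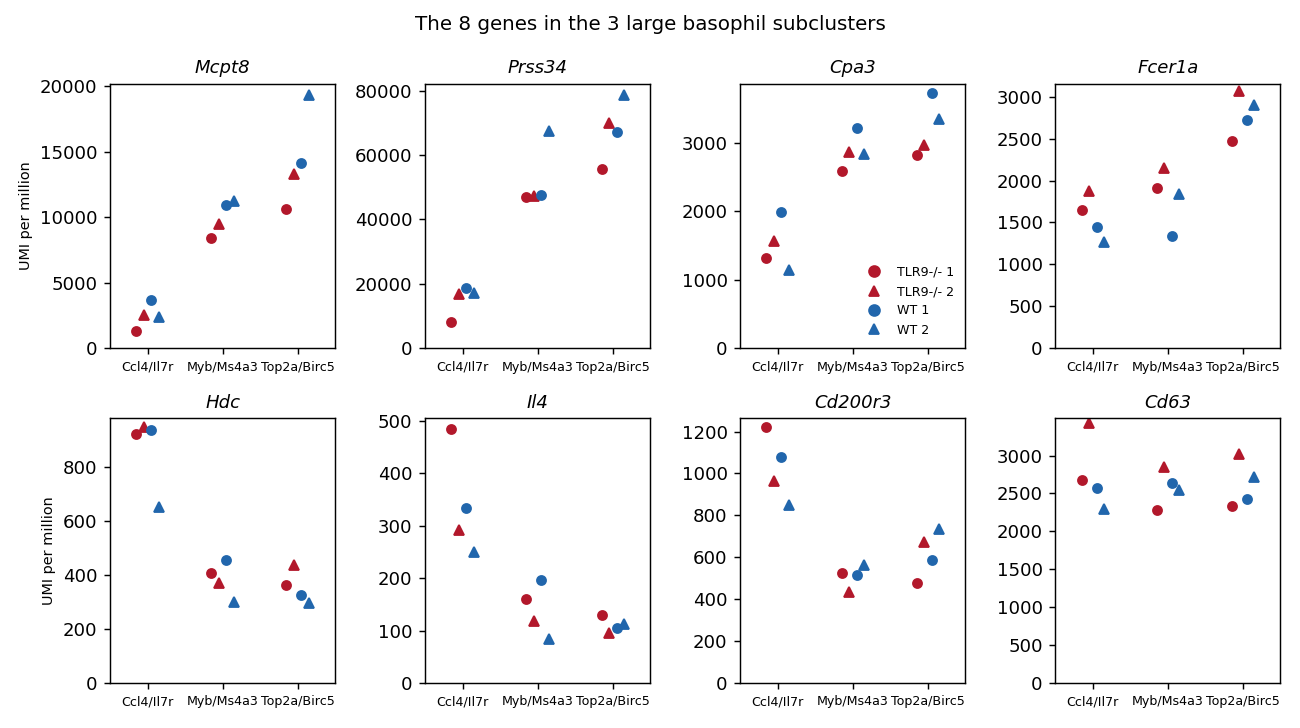
CPM of the 8 genes in 3 subclusters of basophils, each named by 2 of its leading genes, with 1 point per library. Mcpt8, Prss34 and Cpa3 are lowest and Hdc, Il4 and Cd200r3 highest in the Ccl4/Il7r subcluster in all 4 libraries, and Cd63 overlaps among the 3.

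The remaining 111 basophils (14.3%) fell into 4 small subclusters led by genes of monocytes or plasmacytoid dendritic cells, B cells, neutrophils or erythroid cells, and 44 of them were marked as doublets. The tests below between cycling and non-cycling basophils and between genotypes in basophils were also run without these cells, as was that of the basophil share. The other results below were not. These include the gene lists, the shares of cycling cells, the comparison of the cycling step between genotypes and the sums of other classes.

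Whether the effector genes differ between cycling and non-cycling basophils was tested with a class made from other genes. A basophil was called cycling when at least 3 UMIs of 30 G2/M genes remained after thinning to 1000 UMIs, and none of the 8 genes is among those 30. Among the 30, Hmgb2 lay at 2036 to 2192 CPM in basophils, against 198 to 379 for Birc5 (scaled as in the tests below). The part of Hmgb2 in the calls was not tested. Cells called cycling were not each shown to be dividing, and cells not called cycling were not shown to be resting. In cycling basophils Mcpt8, Prss34, Cpa3 and Fcer1a rose, Hdc and Il4 fell, and Cd200r3 and Cd63 did not pass the test. Thus 6 of 8 genes changed, compared with 25.2% of the 4238 genes tested, of which 12.9% rose and 12.2% fell. The median log2 fold change was 0.12 over the 8 genes and -0.01 over all genes tested. The fit kept the library as a block, since both sums come from the same mouse.

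The cycling cells were 102 of 270 basophils with at least 1000 UMIs in TLR9-/- 1, 71 of 192 in TLR9-/- 2, 55 of 142 in WT 1 and 28 of 99 in WT 2. These shares were 37.8%, 37.0%, 38.7% and 28.3%. Means were 37.4% ± 0.56 (SD, n = 2) in TLR9-/- and 33.5% ± 7.39 (SD, n = 2) in WT, and the ranges overlapped (exact permutation p = 1, two-sided). Without thinning, the shares were 57.4%, 65.0%, 49.1% and 58.7%, here of all basophils, those below 1000 UMIs included.

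Mcpt8 was at 5998, 5045, 7396 and 7702 CPM (here and in the tests below scaled by TMM, which corrects library totals for composition) in non-cycling basophils of TLR9-/- 1, TLR9-/- 2, WT 1 and WT 2, and at 7948, 10906, 12273 and 15262 in cycling ones. It was higher in cycling cells in 4 of 4 libraries, and the lowest cycling value lay above the highest non-cycling one. The log2 fold change was 0.81 (SE 0.08, edgeR adjusted p = 1.26e-07). Prss34 was at 33219, 27660, 35791 and 44697 in non-cycling and 43831, 55050, 54692 and 69517 in cycling cells, again higher in 4 of 4 libraries. Its log2 fold change was 0.66 (SE 0.06, adjusted p = 2.5e-08). In both genes TLR9-/- 1 had the smallest step of the 4 libraries, 0.41 and 0.40 on the log2 scale.

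Fcer1a rose from a mean of 1593 ± 300 (SD, n = 4) to 2296 ± 273 CPM, a log2 fold change of 0.54 (SE 0.09, adjusted p = 1.92e-04). Cpa3 rose less, from 2272 ± 327 to 2767 ± 409, with a log2 fold change of 0.28 (SE 0.07, adjusted p = 0.00665). Both were higher in cycling cells in 4 of 4 libraries. Of all genes tested, 20.1% were higher in cycling cells in all 4 libraries, and as many were lower in all 4. Without TLR9-/- 2, the Cpa3 step was 0.26 and no longer passed (adjusted p = 0.0542).

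Hdc was at 584, 609, 675 and 482 CPM in non-cycling basophils and at 399, 410, 306 and 308 in cycling ones, in the same order of libraries. The groups did not overlap, and Hdc fell by 0.70 on the log2 scale (SE 0.12, adjusted p = 1.39e-04). Il4 was at 261, 183, 256 and 176 in non-cycling and 163, 109, 126 and 113 in cycling cells. It was lower in 4 of 4 libraries, also without overlap, and fell by 0.76 on the log2 scale (SE 0.15, adjusted p = 5.94e-04). The cycling values of Il4 rest on 14 to 82 UMIs a library.

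Cd200r3 had a log2 fold change of -0.22 (SE 0.11, adjusted p = 0.165) and was higher in cycling cells in 2 of 4 libraries. Cd63 had one of -0.04 (SE 0.07, adjusted p = 0.727). Its log2 steps were -0.16 and -0.17 in TLR9-/- mice and 0.05 and 0.14 in WT mice. The difference of these steps between genotypes did not pass the test of the interaction (log2 difference -0.26, SE 0.13, adjusted p = 0.999), nor did that of any other of the 8 genes, and 3 of 4238 genes (0.0708%) passed it, all 3 of them hemoglobin genes (Hba-a1, Hba-a2 and Hbb-bs).

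**Figure D4:**
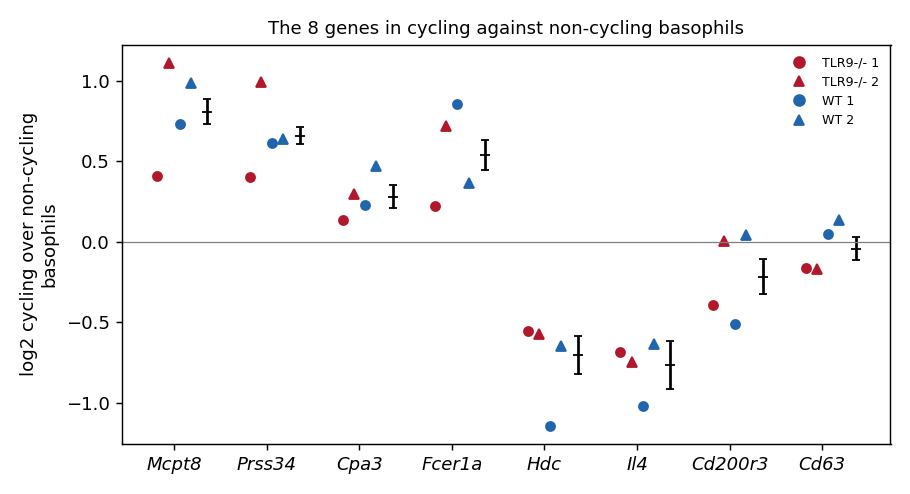
Log2 ratio of the level in cycling over that in non-cycling basophils for the 8 genes. Coloured points are the 4 libraries, and the black mark with its bar is the log2 fold change of the fit with its SE. Mcpt8, Prss34, Cpa3 and Fcer1a lie above 0 and Hdc and Il4 below 0 in all 4 libraries, while Cd200r3 and Cd63 lie on both sides.

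Without the 111 cells of the mixed subclusters the same 6 genes passed, with log2 fold changes of 0.95 for Mcpt8, 0.77 for Prss34, 0.37 for Cpa3, 0.64 for Fcer1a, -0.59 for Hdc and -0.73 for Il4. The result depended on how basophils were chosen. A marker gate took basophils cell by cell. It asked for UMIs of at least 2 of the 20 basophil markers, with Ms4a2 or Cyp11a1 among those found. Of the cells of this gate, 82.6% to 91.9% lay in the cluster. The gate gave 126, 102, 61 and 39 cycling cells in TLR9-/- 1, TLR9-/- 2, WT 1 and WT 2. The cluster gave 102, 71, 55 and 28. Non-cycling cells were 161, 129, 81 and 70 in the gate and 168, 121, 87 and 71 in the cluster. The part of gated cells from outside the cluster in the values of the gate was not tested. In the gate Mcpt8 rose by 0.28 (adjusted p = 0.0302), while Prss34 (0.14, adjusted p = 0.138) and Fcer1a (0.05, adjusted p = 0.796) did not pass. Cpa3 took the other sign (-0.23, adjusted p = 0.051). In that gate Hdc fell by 1.02, Il4 by 1.21, Cd200r3 by 0.67 and Cd63 by 0.41, all 4 past the threshold. Thus the fall of Hdc and Il4 held in both, and the rise of Fcer1a, Prss34 and Cpa3 held for the cluster and not for the gate. Cycling basophils were also deeper, with a median of 3981 to 8770 UMIs a cell against 1939 to 2715 in non-cycling ones, and the part of depth in these results was not tested. The cycling cells were 14.7% of the Ccl4/Il7r subcluster, 25.4% of the Myb/Ms4a3 subcluster and 99.2% of the Top2a/Birc5 subcluster (of cells with at least 1000 UMIs). The cycling and non-cycling sums thus hold different shares of these subclusters, and a difference within one subcluster was not tested. The cells called cycling numbered 39, 53 and 119 in the 3 subclusters as listed. Over all cells of each, Mki67 lay between 0 and 21.8, 26.5 and 83.1, and 298 and 466 CPM. Top2a lay between 0 and 32.7, 28.2 and 58.3, and 573 and 848 CPM. Whether cells called cycling outside the Top2a/Birc5 subcluster were dividing was not tested.

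Of other genes of basophil function, most that changed were lower in cycling basophils, and each count below stands beside 12.2% of all genes tested that were lower and 12.9% that were higher. Of 19 basophil markers tested, 14 were lower and 0 were higher, with Ccl4, Ifitm1, Ccl3 and Lilr4b having the largest steps. Ccl4 and Ccl3 are chemokines, and they fell by 1.92 and 1.39 on the log2 scale. Over all basophils, Ccl4 lay at 3275 and 218 CPM in TLR9-/- 1 and TLR9-/- 2 and at 1583 and 473 in WT 1 and WT 2. In IgE receptor signalling 5 of 14 tested genes were lower (Lat2, Btk, Gab2 and Inpp5d had the largest steps, and Fcer1g, the shared gamma chain, fell by 0.18). Of cytokine and cytokine receptor genes 6 of 12 were lower, led by Csf2rb2, Il7r and Il18r1, and of transcription factor genes 6 of 13 were, among them Gata2 (-0.36) and Cebpa (-0.58). Of histamine and eicosanoid genes, Alox15, Slc18a2, the vesicle transporter that loads histamine, and Alox5ap were lower (3 of 5), and of tetraspanins Cd82, Cd9 and Cd37 (3 of 10). Granule genes were split, with the protease Ctsg higher (0.93) and the lysosomal Ctsl and Ctsd lower, of 10 tested. Ctsg was the 1 gene tested from the loci of mast cell and basophil proteases. Neither of 2 tested CD200 receptor genes passed. The lists share genes. Il18r1, Il18rap, Il6, Gata2, Alox15 and Slc18a2 were counted in these lists and also among the 14 lower markers. The G2/M genes, by which the cells were chosen, were higher for 26 of 26.

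Between genotypes, none of the effector genes passed the test within basophils. Of the 8 genes 0 passed, and of 6882 genes tested 12 did (0.174%), with 6 higher and 6 lower in TLR9-/- (0.0872% in each direction). None of the 8 reached an unadjusted p of 0.05, against 440 of all genes tested, and 0 of the 8 passed with DESeq2, which called 7 genes in all. Mcpt8 was at 6474 and 8098 CPM (TMM-scaled) in TLR9-/- basophils and at 9242 and 10030 in WT basophils. The TLR9-/- values were both below the WT values, with means of 7286 ± 1148 and 9636 ± 557 (SD, n = 2 each). Its log2 fold change was -0.40 (SE 0.20, edgeR adjusted p = 0.779).

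Prss34 was at 35725 and 41726 in TLR9-/- and 42298 and 50927 in WT basophils, with a log2 fold change of -0.27 (SE 0.18, adjusted p = 0.828). Cpa3 was at 2066 and 2234 in TLR9-/- and 2815 and 2311 in WT (log2 fold change -0.25, SE 0.21, adjusted p = 0.885). Cd200r3 was at 598 and 583 in TLR9-/- and 603 and 662 in WT (log2 fold change -0.10, SE 0.22, adjusted p = 0.967). In these 4 genes both TLR9-/- values were below both WT values, as they were for 17.5% of all genes tested (20.0% lay higher without overlap, and 37.4% in either direction). The other 4 overlapped between genotypes. Fcer1a had a log2 fold change of 0.19 (SE 0.22), Hdc of 0.12 (SE 0.23), Il4 of 0.03 (SE 0.27) and Cd63 of -0.04 (SE 0.21), with adjusted p between 0.914 and 0.998. The median over the 8 genes was -0.07, and 0.00 over all genes tested.

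**Figure D5:**
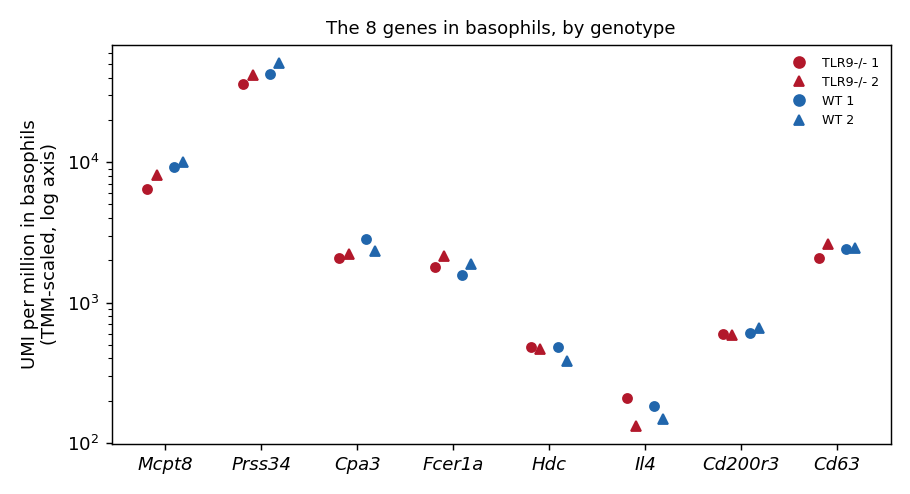
TMM-scaled CPM of the 8 genes in basophils on a log axis, with 1 point per library. TLR9-/- and WT libraries lie close together for each gene. Both TLR9-/- points of Mcpt8, Prss34, Cpa3 and Cd200r3 lie below both WT points.

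The 12 genes that passed included Elane and Prtn3, proteases of granulocyte precursors, which were higher in TLR9-/- basophils by 2.29 and 2.08 on the log2 scale (SE 0.37 and 0.35, adjusted p = 0.0232 and 0.035). Elane gave 843, 1169, 126 and 31 UMIs in TLR9-/- 1, TLR9-/- 2, WT 1 and WT 2, of which 271, 724, 30 and 4 came from the single highest cell. The 8 markers of granulocyte precursors, Elane and Prtn3 among them, summed to 6362 and 8615 CPM in TLR9-/- and 4579 and 3557 in WT basophils, with 7 or 8 of 8 detected. In all other cells they summed to 11604 and 17475 CPM in TLR9-/- and 6231 and 9066 CPM in WT. The part of RNA from other cells in these rises was not tested. A further 3 genes were at 0 in both WT libraries, BC018473, Gm6594 and Gm35082, with 404, 156 and 115 UMIs in TLR9-/-, at least 49.8-fold, 19.2-fold and 14.2-fold higher against a floor of 3 UMIs over the group. Mid1 was also higher. Trim12a was at 0 in TLR9-/- against 50 UMIs in WT (at least 45.0-fold lower). Naip5, Hist1h2ac, Gm30211 and the immunoglobulin genes Igkv10-96 and Igkc were lower too. The 34 B lineage markers, of which 26 to 32 were detected in the basophils of a library, summed there to 1743 and 1089 CPM in TLR9-/- and 2419 and 2050 CPM in WT, and in all other cells to 6294 and 5691 CPM in TLR9-/- and 11901 and 9306 CPM in WT. Their part in these falls was not tested. In TLR9-/- 2, 1 cell held 1837 of the 1843 UMIs of the eosinophil gene Prg2. The part of such cells in the values of the 8 genes was not tested beyond leaving out the mixed subclusters, after which 0 of the 8 passed as well. Of 10 lists of related genes, from IgE receptor signalling to G2/M genes, 0 genes passed in basophils. The G2/M genes had a median log2 fold change of 0.48, against 0.00 over all genes tested, and 16 of 30 were higher in TLR9-/- without overlap, compared with 20.0% of all genes.

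In the sum over all cells, all 8 genes had positive log2 fold changes in TLR9-/- and 0 passed, compared with 38 of 14194 genes (0.268%). For the 6 genes concentrated in basophils, such a sum cannot tell more basophils from more RNA per basophil. Fcer1a was at 39.6 and 38.7 CPM (TMM-scaled) in TLR9-/- and 23.6 and 15.1 in WT, a log2 fold change of 1.02 (SE 0.23, adjusted p = 0.154). Hdc was at 48.7 and 69.8 in TLR9-/- and 31.0 and 41.5 in WT (0.71, SE 0.24, adjusted p = 0.246). Most Hdc and Cd63 molecules lay outside basophils, and in neutrophils Hdc was at 178 and 226 CPM in TLR9-/- and 143 and 141 CPM in WT, a difference that was not tested. The ranges for Mcpt8 (0.38), Prss34 (0.53) and Cd200r3 (0.67) did not overlap either, so that both TLR9-/- values were higher for 5 of 8 genes, as for 24.8% of all genes tested (51.1% in either direction). Cpa3 (0.48), Il4 (0.73) and Cd63 (0.30) overlapped. Adjusted p lay between 0.154 and 0.670 for the 8 genes, and the median log2 fold change was 0.60, against -0.02 for all genes. An unadjusted p under 0.05 was seen for 2 of the 8 and for 2433 of all genes, and with DESeq2 1 of the 8, Fcer1a, passed (adjusted p = 0.00441), among 849 genes. Of the same 10 lists 0 genes passed in all cells, where the median of the G2/M genes was -0.18. Without overlap, 15 of the 30 G2/M genes were lower in TLR9-/- and 3 were higher, compared with 26.3% and 24.8% of all genes.

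In HSPCs, of which there were 478, 329, 199 and 209 in TLR9-/- 1, TLR9-/- 2, WT 1 and WT 2, 5 of the 8 genes had enough UMIs to be tested. Of these 0 passed, compared with 22 of 9703 genes (0.227%, with 0.0824% higher and 0.144% lower). Cpa3 was at 43.5 and 34.4 CPM (TMM-scaled) in TLR9-/- and 55.3 and 54.0 in WT, with a log2 fold change of -0.49 (SE 0.21, adjusted p = 0.522). Mcpt8 was at 12.8 and 20.3 against 10.6 and 4.84 (1.15, SE 0.44, adjusted p = 0.487), on 43, 66, 10 and 6 UMIs. Hdc was at 19.7 and 19.9 against 12.8 and 12.1 (0.67, SE 0.29, adjusted p = 0.526), and Cd63 had a log2 fold change of -0.18 (SE 0.18, adjusted p = 0.784). In each of these 4 genes the genotypes did not overlap, 2 being higher and 2 lower, against 20.6% and 21.0% of all genes tested (41.6% in either direction). With DESeq2, which called 39 genes in HSPCs, 0 of the 8 passed, and 3 of the 5 had an unadjusted p under 0.05 with edgeR, as did 903 of all genes tested. Of the 10 lists 0 genes passed here. The G2/M genes had a median log2 fold change of 0.65 in HSPCs, against -0.02 over all genes tested, with 25 of 30 higher in TLR9-/- without overlap.

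Prss34 in HSPCs was decided by single cells. It gave 8, 153, 31 and 2 UMIs in TLR9-/- 1, TLR9-/- 2, WT 1 and WT 2, and the highest single cell of TLR9-/- 2 held 89 of them. Its log2 fold change was 0.64 (SE 1.13, adjusted p = 0.890). Without TLR9-/- 1 it was 1.57 (adjusted p = 0.00244) and without TLR9-/- 2 it was -2.73 (adjusted p = 0.0193), while without WT 1 it was 3.90 (adjusted p = 0.416) and without WT 2 -0.41 (adjusted p = 0.945), so the sign followed the library that was left out. Fcer1a (15, 14, 0 and 3 UMIs), Il4 (5, 1, 1 and 2) and Cd200r3 (1, 6, 0 and 0) were too low to test in HSPCs.

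In granulocyte precursors Mcpt8 was present without a matching amount of Prss34. In basophils there were 4.58 to 5.52 Prss34 UMIs for each Mcpt8 UMI in the 4 libraries. In granulocyte precursors the ratio was 1.52, 0.10, 1.51 and 0.63 in TLR9-/- 1, TLR9-/- 2, WT 1 and WT 2. Without cells past the marker gate described above, 135, 156, 12 and 40 Mcpt8 UMIs remained beside 23, 17, 1 and 9 Prss34 UMIs. This was not particular to granulocyte precursors. Without gated cells, HSPCs held 42, 31, 4 and 6 Mcpt8 beside 6, 5, 2 and 2 Prss34 UMIs in the same order of libraries. Monocytes held 22, 12, 16 and 16 beside 24, 16, 5 and 15. In the B lineage, Prss34 exceeded Mcpt8 in all 4 libraries, with 62, 17, 33 and 82 UMIs against 5, 5, 10 and 12. A Mcpt8 UMI was seen in 261 of 1984 granulocyte precursors and in 28 of 14590 B lineage cells, whose median depths were 11952 to 24012 and 1122 to 1717 UMIs. After thinning to 1000 UMIs the shares were 0.78% to 1.67% and at most 0.14%. Hdc, by comparison, had a UMI in 1211 and Cd63 in 1659 of the same 1984 granulocyte precursors.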

How the data were processed

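Bone marrow mononuclear cells of 2 TLR9-/- and 2 WT mice were profiled with the 10x Chromium 5′ platform. The deposited values are counts of UMIs per gene and cell, made by the authors with Cell Ranger (3.0.1 in the file headers, with STAR and mm10 in the submitters' processing notes, which also name Seurat 2.3.4). The gene annotation used is not given in the sources used here. There is 1 matrix per library, and the totals show no depth equalization.

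Cells with 200 to 10000 genes and at most 10% mitochondrial UMIs were kept. Doublets were marked with Scrublet (in WT 2 its own threshold marked 0.0112% of cells, so the highest scores up to 0.8% per 1000 cells were taken) but not removed in the main analysis. Cells were clustered with scanpy 1.11.5 (2000 variable genes without the 8 genes, 30 components, 15 neighbours, Leiden resolution 1). A class was named from fixed markers among the 10 leading genes of a cluster, and 1 cluster of 304 cells stayed unnamed. For basophil subclusters 1000 variable genes, 15 components and resolution 0.5 were used. UMIs were summed per library and class and tested with edgeR 4.0.16 (filterByExpr, TMM, quasi-likelihood, two-sided, Benjamini-Hochberg over all genes tested, threshold 0.05) after the script was tested on simulated data. DESeq2 1.42.0 was the alternative tool. Levels by class are CPM of the summed counts, and those beside a test are TMM-scaled CPM. Named besides the 8 genes were the genes of each list that passed, at most the 4 with the largest steps (further ones were chosen after their values were seen), the genes that passed in basophils (at most 10 in each direction), and the 3 genes most like each, of which 1 is not reported here. The members and lists were chosen with earlier results of these data known.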

Additional observations from a re-analysis of the deposited data

How the results depend on the processing

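Among the 8 genes, 0 passed in basophils under each of 14 alternatives (other size factors, no filter on low counts, DESeq2, the replicate block, each library left out, other limits on cells, another clustering, the marker gate, no mixed subclusters). Between cycling and non-cycling basophils 5 or 6 passed under each of 14, but the 5 of the marker gate were Mcpt8, Hdc, Il4, Cd200r3 and Cd63. In all cells 1 passed without the filter (Fcer1a, adjusted p = 0.0153), 1 with DESeq2 and 2 with the replicate block, Fcer1a (adjusted p = 0.0291) and Hdc (adjusted p = 0.0313), and with single libraries left out 0 passed. In HSPCs the range with single libraries left out was 0 to 1. Cpa3 in cycling basophils did not pass with DESeq2 (0.29, adjusted p = 0.0914), a limit of 2 G2/M UMIs (0.22, adjusted p = 0.0707) or no library term (0.28, adjusted p = 0.243).

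The basophil share passed with the replicate block (log2 fold change 0.89, adjusted p = 0.0148). Replicate numbers are not said to mark the 2 experiments. Same-numbered libraries were alike in the size of the unnamed cluster. It held 170 and 126 cells in TLR9-/- 1 and WT 1, and 4 each in TLR9-/- 2 and WT 2. The deviations of same-numbered libraries from their genotype means had a correlation of 0.36 across 14194 genes. Left-out libraries gave log2 fold changes of 0.68 to 1.12, and the other alternatives 0.78 to 1.00, with the block as the single one past the threshold.

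Counts of all genes that passed moved more. In basophils 12 became 68 without the filter, 7 with DESeq2, 62 with the block and 24 to 82 with libraries left out. In all cells 38 became 605, 849, 1165 and 58 to 88 in the same order. In HSPCs 22 became 39 with DESeq2, 101 with the block and 17 to 101 with libraries left out. In cycling basophils 1067 became 504 with DESeq2, 559 with no replicate block (no library term) and 612 (without TLR9-/- 2) to 1093 with libraries left out. Where a genotype keeps 1 library, that library is assumed to vary like the others. The causes of these changes were not tested.

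Some log2 fold changes turned sign where the gene had not passed. In basophils, with libraries left out, Hdc ranged from -0.049 (without WT 2) to 0.30, Il4 from -0.31 (without TLR9-/- 1, and -0.12 without WT 2) to 0.34, and Cd63 from -0.20 to 0.13 (without TLR9-/- 1). Il4 was also at -0.015 without marked doublets and -0.21 in the marker gate, and Cd63 at 0.050 without mixed subclusters. Cd63 in all cells ranged from -0.075 (without TLR9-/- 2, and -0.01 without WT 1) to 0.71, and Prss34 in HSPCs from -2.73 (without TLR9-/- 2, and -0.41 without WT 2) to 3.90. Prss34 could not be tested in HSPCs under 3 alternatives that left too few UMIs. Over the 13 alternatives in HSPCs, Cpa3 ranged from -1.24 to -0.33 and Mcpt8 from 0.65 to 1.81. At Leiden resolution 2 there were 975 HSPCs instead of 1215, and 138 cells formed a megakaryocyte cluster. Cpa3 in cycling basophils, which had passed, turned in the marker gate (-0.23). Leaving out the mixed subclusters, leaving out gated HSPCs and the interaction with genotype were chosen after seeing the data. Depth limits Il4 most, with 48 to 220 UMIs in the basophils of a library.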
